A study of Mus musculus with 6 samples.

Results

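Insulin-like growth factor 1 (Igf1), its receptors and the binding proteins that hold it in the extracellular space were followed as a group of 10 genes, Igf1, Igf1r, Igf2r, Insr and Igfbp2 to Igfbp7, out of 43274 genes in the deposited tables. They were found by mapping the Ensembl identifier of each row to its mouse symbol. The group was selected on the fold changes and adjusted p-values of its members in the same comparison of ILK-K5 with control, so their values in it are a description and not independent support for a difference. Bulge stem cells (SCs) of the hair follicle had been sorted from mouse epidermis at postnatal day 21 as cells with high α6 integrin that were positive for CD34, and their polyA RNA was amplified and sequenced. Both genotypes expressed Cre under the keratin 5 (K5) promoter, which is active in basal keratinocytes. The 3 control libraries came from ILK fl/+ K5-Cre mice, labelled ILK +/-, so that the controls also carried a floxed allele of Ilk, the gene of integrin-linked kinase. The 3 ILK-K5 libraries came from ILK fl/fl K5-Cre mice, labelled ILK -/-. The mice had a mixed C57Bl6-129/Sv background. Controls were littermates with sexes distributed at random, and the labels do not tell whether a library held cells of 1 animal or of several. The p-values therefore measure the spread between these libraries, which may in part be technical.

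Igf1 is a secreted growth factor that signals through the receptor tyrosine kinase Igf1r and, more weakly, through the insulin receptor Insr. In skin it is known mainly as a product of mesenchymal cells such as the dermal papilla, and also of macrophages. Igfbp2 to Igfbp6 bind Igf1 with high affinity, which can keep it from its receptor or prolong its presence in tissue, whereas Igfbp7 is a related secreted protein with low affinity for it. Igf2r binds Igf2 and carries it to lysosomes.

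The libraries held 8228019 to 11969072 reads on genes, and a single read was worth 0.726 to 1.52 normalised counts. Mitochondrial genes held 11.5 to 27.6% of the reads. The count of Ilk, the targeted gene, was 10.6, 16.7 and 38.5 in the controls and 14.8, 30.9 and 29.2 in the ILK-K5 libraries (log2 fold change 0.30, SE 0.64, limma adjusted p = 0.933). In the annotation 76.7% of its exon bases are shared with Taf10 and 12.9% with Rrp8 on the opposite strand, so this count does not check the genotype. The 8 markers of basal keratinocytes summed to 67791 to 110930 normalised counts in the controls and 66063 to 83197 in the ILK-K5 libraries, and 0 of 8 were called. The 9 bulge SC markers summed to 46846 to 109883 and to 23881 to 50625, with Cd34, the antigen of the sort, named after its values were seen, called lower (log2 fold change -1.90, SE 0.37, adjusted p = 0.0239). That call was kept under 12 of 18 alternatives, with adjusted p up to 0.137.

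Igf1 rose and Igfbp3 fell, whereas the 3 receptors were not called in either direction. Of the 10 genes, 9 passed the filter of a mean of at least 10 normalised counts, 1 was called higher and 1 was called lower. Among all 16368 genes tested, 2.93% were called higher and 0.599% lower, 3.53% in all, at an adjusted p of at most 0.05. Since the same contrast chose the members, nothing is read from these counts. The median log2 fold change was 0.033 for these 9 genes and 0.0054 for all genes tested. The libraries of the genotypes did not overlap for 4 of the 9, with Igf1 above and Igfbp3, Igfbp4 and Igfbp5 below the controls. Over all genes tested, 10.9% were above and 6.95% below in that sense.

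**Figure D1:**
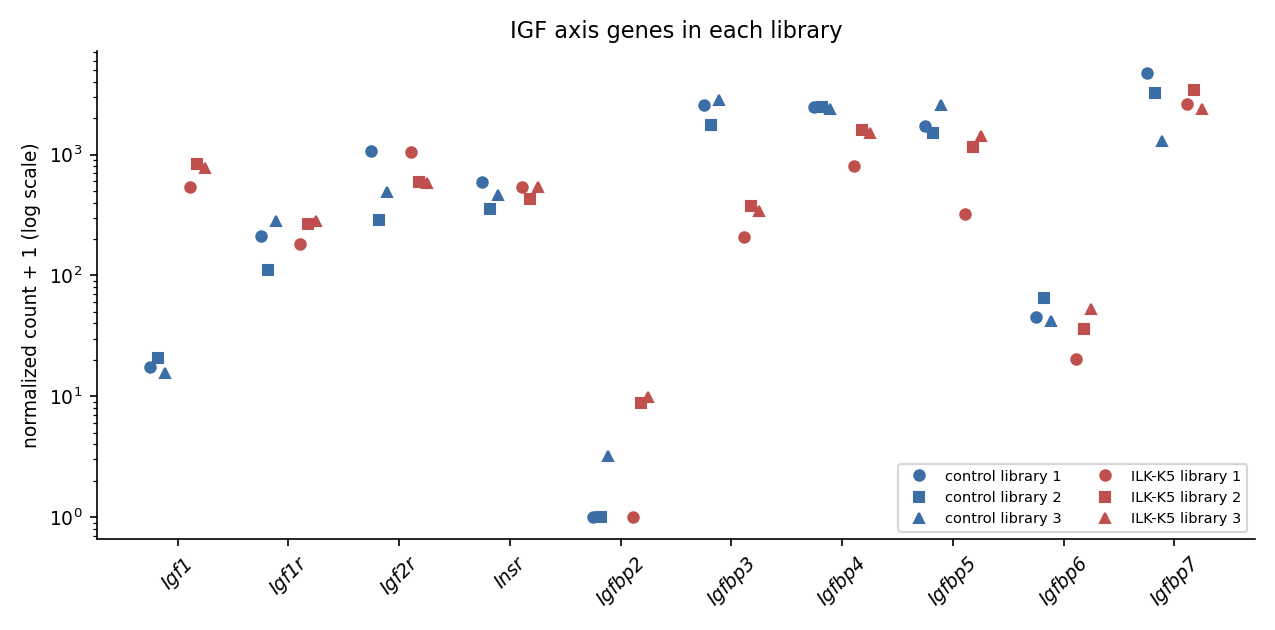
Normalised counts of the members in each library on a log scale, with control and ILK-K5 libraries as separate points. Igf1 lies between 14.5 and 19.8 in the controls and between 539 and 842 in the ILK-K5 libraries, and Igfbp3 lies between 1744 and 2819.7 and between 206 and 372.

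Igf1 lies on chromosome 10 (chr10:87858265-87937042, plus strand, GRCm38), and none of its exon bases are shared with another gene. It was counted at 16.4, 19.8 and 14.5 normalised counts in control libraries 1 to 3, from 17, 13 and 20 reads. In ILK-K5 libraries 1 to 3 it was counted at 539, 842 and 777 normalised counts, from 473, 1092 and 798 reads. Every ILK-K5 library was thus far above every control, and library 1 was the lowest of the 3. The means were 16.9 ± 2.66 in the controls and 719 ± 160 in the ILK-K5 libraries (SD, n = 3 each), a ratio of 42.6. On the scale of log2 of the normalised count plus 1 the fold change was 5.32 (SE 0.34, 95% interval 4.54 to 6.09), with a limma adjusted p of 1.40e-04. Of all genes tested, 131 had a larger rise. Per length, Igf1 stood at 0.170, 0.205 and 0.150 FPKM in the controls and at 5.58, 8.72 and 8.05 FPKM in the ILK-K5 libraries. In bulk RNA, a change in the number of cells of a type and a change in RNA per cell cannot be told apart.

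Markers of macrophages, which are themselves a known source of Igf1, moved with it. Of the 15 macrophage markers 14 were tested, 13 were called higher and 0 lower. Their summed level was 835 to 1264 normalised counts in the controls and 13702 to 17257 in the ILK-K5 libraries. Fcgr1 had 0 reads in every control, while Csf1r, the receptor for colony stimulating factor 1, was at 58.9, 15.2 and 44.3 normalised counts in the controls and at 2747, 2390 and 1793 in the ILK-K5 libraries. Lyz2, a lysozyme gene of myeloid cells, was at 0, 19.8 and 12.3 and at 1869, 4998 and 3462. The tested marker that was not called was Mertk, named after its values were seen, at 506, 961 and 710 in the controls and 569, 732 and 813 in the ILK-K5 libraries. Relative to the whole list, Igf1 stood at 19.7, 15.6 and 15.6 per 1000 normalised counts of the list in the controls and at 39.2, 48.8 and 56.7 in the ILK-K5 libraries, without overlap. Relative to the list without Mertk, a choice made after its values were seen, Igf1 stood at 49.9, 65.3 and 65.1 in the controls. In the ILK-K5 libraries it stood at 40.9, 51.0 and 60.3, and the genotypes overlapped. That shortened list summed to only 329, 303 and 223 normalised counts in the controls. Itgam, named after its values were seen, held 197, 190 and 45.7 of these. The overlap thus depends on which markers the list holds, and other cuts of it were not tried. The part of macrophages in the rise of Igf1 was not tested.

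**Figure D2:**
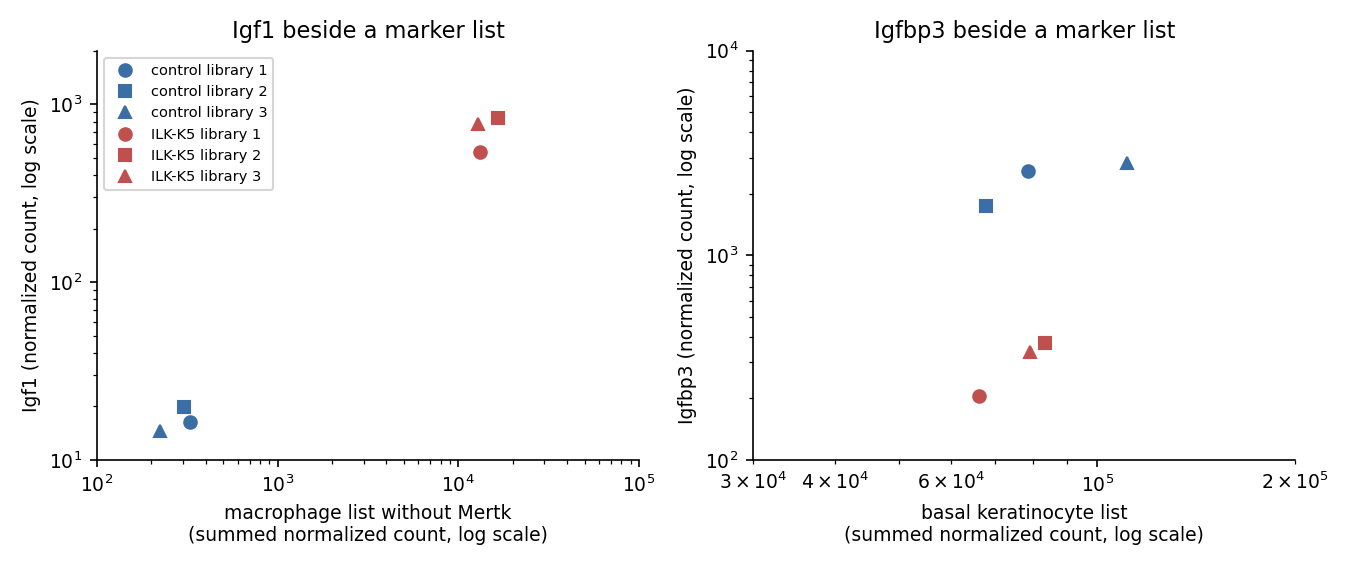
Igf1 against the summed macrophage markers without Mertk, and Igfbp3 against the summed basal keratinocyte markers, in normalised counts on log axes, with a point for each library. Igf1 and the macrophage sum are both higher in the 3 ILK-K5 libraries, whereas Igfbp3 is lower in them at basal keratinocyte sums that overlap between genotypes.

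Other cell types were followed with marker lists as well. Langerhans and dendritic cell markers summed to 52.1 to 541 normalised counts in the controls and to 11395 to 18814 in the ILK-K5 libraries. Most of the ILK-K5 sums was Cd74 (2529, 11358 and 5978) and H2-Aa (8878, 6520 and 4525). Of the 5 markers 3 were called higher, Cd74, H2-Aa and Itgax, the last named after its values were seen. H2-Aa and Itgax kept their calls under 18 of 18 alternatives and Cd74 under 11 of 18. Cd207 and Flt3, named after their values were seen, were not called (limma adjusted p = 0.148 and 0.750). The libraries of the genotypes overlapped for Flt3 but not for Cd207. Of 6 fibroblast markers tested, 2 (Col3a1 and Dpt, named after their values were seen) were called higher, and the 10 markers of the list summed to 1096 to 1525 and to 2290 to 2813. The call of Dpt was kept under 11 of 17 alternatives. Col1a1 and Fbln1, the most abundant tested markers of this list, were not called (log2 fold change 0.85 and 0.0019, limma adjusted p = 0.141 and 0.9996). Dermal papilla markers, of which 2 of 8 could be tested and 0 were called, summed to 53.0 to 139 in the controls and to 21.6 to 33.0 in the ILK-K5 libraries, with Sox2, also named after its values were seen, at 0 reads in every library. No marker was called among 4 tested for T cells, 3 for endothelial cells, 4 for smooth muscle and pericytes, 4 for melanocytes and 2 for Schwann cells. The T cell sums did not overlap, at 158 to 176 in the controls and 245 to 328 in the ILK-K5 libraries, whereas those of the latter lists overlapped. Single markers could separate without a call, such as Pdgfrb and Tek, named after their values were seen. Pdgfrb had 0, 0 and 2 reads in the controls and 17, 36 and 13 in the ILK-K5 libraries (log2 fold change 3.89, limma adjusted p = 0.0519). Tek was lower (-2.02, adjusted p = 0.144). The part of fibroblasts or Langerhans and dendritic cells in the values of Igf1 and the Igfbp genes was not tested.

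Over the 6 libraries, the 5 genes whose log2 values followed Igf1 most closely were Gpr183, Fcrls, F7, Fcgr1 and C1qb, with Pearson's r from 0.997 to 0.999. Fcgr1, an Fc receptor, and C1qb, a chain of complement C1q, are on the macrophage list. The same measure gave Slc25a38, Nrip3, Pfn2, Hsp90aa1 and Fgf18 for Igfbp3, with r from 0.988 to 0.996. For Igfbp7, which had the highest fitted log2 fold change of the tested binding proteins (0.033), it gave A730085K08Rik, Hspd1, Txnrd3, Gstm7 and Col5a1, with r from 0.973 to 0.999. With 3 libraries of each genotype, a gene that differs between genotypes correlates with every other such gene, so these values only describe the pattern.

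The receptors showed no such separation. Igf1r, the main receptor for Igf1, was counted at 211, 109 and 281 in the controls and at 181, 266 and 279 in the ILK-K5 libraries, which overlapped (log2 fold change 0.35, 95% interval -0.55 to 1.24, adjusted p = 0.855). Igf2r was counted at 1066, 289 and 486 and at 1052, 595 and 586, with library 1 the highest in both genotypes (0.43, interval -0.62 to 1.48, adjusted p = 0.841). Insr was counted at 597, 356 and 459 and at 535, 431 and 534 (0.11, interval -0.53 to 0.75, adjusted p = 0.943). The intervals still allow more than a doubling of Igf1r and Igf2r, and the sign of all 3 turned without control library 2, to -0.035, -0.0077 and -0.074.

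**Figure D3:**
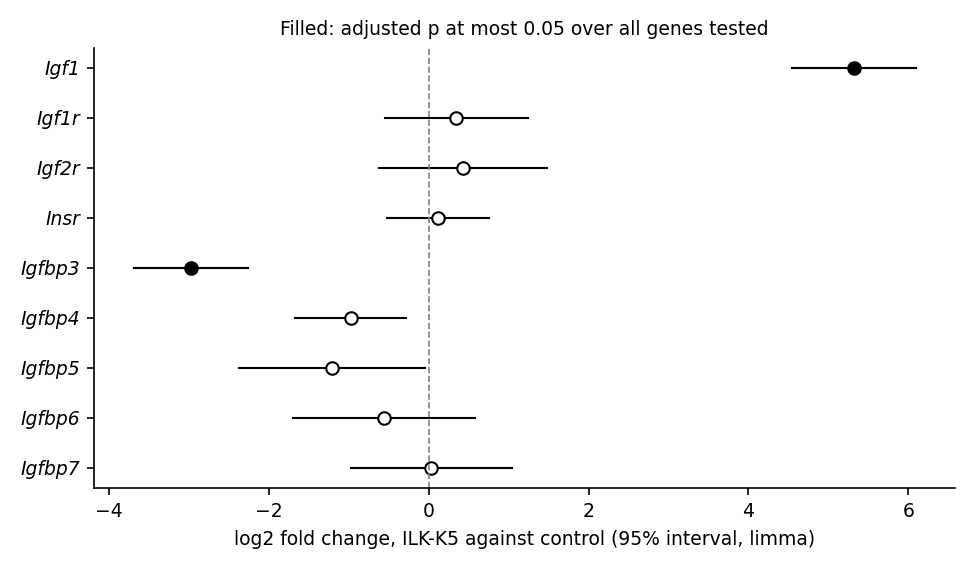
Log2 fold change of each tested member, ILK-K5 minus control, with its 95% interval from limma. Igf1 at 5.32 and Igfbp3 at -2.98 are the members called, and the intervals of Igf1r, Igf2r, Insr, Igfbp6 and Igfbp7 include 0.

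Among the binding proteins, Igfbp3, Igfbp4 and Igfbp5 were lower in every ILK-K5 library than in any control, and Igfbp3 passed the test. The windows before the start of these 3 genes are shown because their counts were lower together. They were taken from RefSeq for GRCm38.p6 and are written 5′ to 3′ on the strand of the gene, with annotated exon bases left out. The windows lie at chr11:7213924-7214173 (minus strand) for Igfbp3, chr11:99040994-99041243 (plus strand) for Igfbp4 and chr1:72874885-72875115 (minus strand) for Igfbp5, and capitals mark TATAAA.
Igfbp3: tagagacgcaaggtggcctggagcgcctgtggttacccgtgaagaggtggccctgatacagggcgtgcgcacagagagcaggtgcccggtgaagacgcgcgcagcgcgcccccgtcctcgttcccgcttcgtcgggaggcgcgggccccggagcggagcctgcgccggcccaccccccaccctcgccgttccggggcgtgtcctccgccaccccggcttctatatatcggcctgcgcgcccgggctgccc
Igfbp4: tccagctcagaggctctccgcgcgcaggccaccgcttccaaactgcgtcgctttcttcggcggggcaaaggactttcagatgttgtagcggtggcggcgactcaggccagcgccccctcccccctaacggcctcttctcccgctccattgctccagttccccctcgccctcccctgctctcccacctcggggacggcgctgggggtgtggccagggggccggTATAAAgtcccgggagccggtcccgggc
Igfbp5: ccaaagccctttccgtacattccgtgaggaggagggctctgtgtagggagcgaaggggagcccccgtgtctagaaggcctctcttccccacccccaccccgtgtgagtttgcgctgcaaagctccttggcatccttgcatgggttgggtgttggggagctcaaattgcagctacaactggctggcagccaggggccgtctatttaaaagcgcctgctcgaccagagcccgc
The windows hold 73.2, 69.2 and 60.6% G and C, against a median of 52.4% over all promoters of the set. High values were not particular to them. Among members whose libraries overlapped, the windows of Igf1r, Igf2r and Igfbp7 hold 77.6, 69.2 and 74.0%, and that of Igfbp6 holds 49.6%. TATAAA, searched on both strands, occurs in the Igfbp4 window and in 12.4% of 32851 promoters of 250 bases. It also occurs in the window of Igfbp6. The letters GGGCGG (in 32.7% of promoters), CAGAC (42.2%) and GTAAACA (3.17%), searched in the same way, are not in these 3 windows. A match or its absence describes these letters and not the binding of a factor.

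Igfbp3, the main carrier of Igf1 in blood and also a product of epithelial cells, lies on chromosome 11 (chr11:7206086-7213923, minus strand) beside Igfbp1, which had 0 reads in every library. It was counted at 2578, 1744 and 2819.7 in the controls, from 2672, 1147 and 3886 reads. In the ILK-K5 libraries it was counted at 206, 372 and 337, from 181, 482 and 346 reads. The highest ILK-K5 library was far below the lowest control. The means were 2381 ± 564 and 305 ± 87.4 (SD, n = 3 each), so that the control mean was 7.81 times the ILK-K5 mean. The log2 fold change was -2.98 (SE 0.32, 95% interval -3.69 to -2.26, limma adjusted p = 0.00107), and 59 genes had a larger fall. Relative to the basal keratinocyte markers, a choice made after the values were seen, Igfbp3 stood at 32.9, 25.7 and 25.4 per 1000 normalised counts of that list in the controls and at 3.12, 4.47 and 4.26 in the ILK-K5 libraries. The difference was of similar size on this scale, at -2.83 (log2). No such scale was formed from the bulge SC markers, whose sums were 46846 to 109883 in the controls and 23881 to 50625 in the ILK-K5 libraries. The size of the difference may depend on the list used, and the part of cell composition in it was not tested.

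Igfbp4, which is cleaved by the protease Pappa, was counted at 2472, 2495 and 2384 in the controls and at 805, 1583 and 1519.6 in the ILK-K5 libraries. The controls lay close together and all ILK-K5 libraries lay below them, with library 1 the lowest. The means were 2450 ± 58.9 and 1303 ± 432 (SD, n = 3 each). The log2 fold change of -0.97 (SE 0.31, 95% interval -1.67 to -0.28) did not pass the test over all genes (limma adjusted p = 0.168, from 0.0427 to 0.400 over the alternatives).

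Igfbp5, a binding protein that attaches to extracellular matrix, lies 5457 bases from Igfbp2 on chromosome 1. It was counted at 1712, 1499 and 2552 in the controls and at 322, 1153 and 1413 in the ILK-K5 libraries, without overlap (log2 fold change -1.21, SE 0.52, 95% interval -2.38 to -0.05, adjusted p = 0.373). ILK-K5 library 1 stood far below the others, and without it the log2 fold change was -0.55. With replicates 2 and 3 only, whose library names end in the same digits, the log2 fold changes were -0.65 for Igfbp4, -0.62 for Igfbp5, -2.64 for Igfbp3 and 5.50 for Igf1.

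Igfbp6, which prefers Igf2, was counted at 44.4, 63.9 and 40.6 in the controls and at 19.4, 34.7 and 51.6 in the ILK-K5 libraries, which overlapped (log2 fold change -0.56, SE 0.51, adjusted p = 0.800). Igfbp2 stayed below the filter and was not tested. It had 0, 0 and 3 reads in the controls and 0, 10 and 9 reads in the ILK-K5 libraries, so the controls were at or under the 3 reads that a count of 0 allows. Igfbp7 was counted at 4739, 3227 and 1293 in the controls and at 2598, 3424 and 2379 in the ILK-K5 libraries. Its controls spread over a wider range than the ILK-K5 libraries and enclosed them (log2 fold change 0.033, 95% interval -0.97 to 1.04, adjusted p = 0.991). Of its exon bases, 7.03% are shared with Polr2b on the opposite strand.

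Levels of different genes were compared per length, as FPKM. In the controls Igfbp7 had the highest median at 273 FPKM, followed by Igfbp3 at 84.5, Igfbp4 at 57.4 and Igfbp5 at 29.2, with Igfbp3 and Igfbp4 overlapping. Igf2r at 5.28, Insr at 4.89, Igf1r at 4.83 and Igfbp6 at 4.09 FPKM followed, and neighbours in this run overlapped. Igf1 at 0.170 and Igfbp2 at 0 FPKM were last. In the ILK-K5 libraries the order was Igfbp7 at 219.6 FPKM, Igfbp4 at 35.3, Igfbp5 at 19.7, Igfbp3 at 11.04 and Igf1 at 8.05, and from Igfbp4 to Igf1 each overlapped the next. Igf2r at 6.47, Igf1r at 6.08, Insr at 5.68, Igfbp6 at 3.20 and Igfbp2 at 0.428 FPKM came after. Igf1 was thus below Igf1r in every control library, while its ILK-K5 median was above that of Igf1r.

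The summed level of Igfbp2 to Igfbp7 was 576, 419 and 304 FPKM in the controls and 252.4, 362 and 277 FPKM in the ILK-K5 libraries. The genotypes overlapped and the difference in mean log2 was -0.51, or -0.74 to -0.28 when a library was left out. As summed normalised counts, which weight long transcripts more, the genotypes did not overlap, at 9029 to 11545 in the controls and 3951 to 6575 in the ILK-K5 libraries (-0.89). No test is given for these sums, since the members were chosen on the same contrast. Igfbp7 alone made up 69.6, 65.0 and 35.9% of the sum in the controls and 87.0, 80.0 and 72.6% in the ILK-K5 libraries. Without Igfbp7 the sum was 175, 147 and 195 FPKM in the controls and 32.7, 72.3 and 75.7 FPKM in the ILK-K5 libraries, without overlap, a difference of -1.60 (log2), with the abundant member whose libraries overlapped left out. Within this smaller sum the share of Igfbp3 was 48.2, 39.0 and 47.3% in the controls and 20.6, 16.9 and 14.6% in the ILK-K5 libraries. That of Igfbp4 was 32.8, 39.5 and 28.4% and 57.1, 50.9 and 46.6%, the largest share in every ILK-K5 library. This larger share was not a rise of Igfbp4, which stood at 57.4, 57.9 and 55.3 FPKM in the controls and at 18.7, 36.8 and 35.3 FPKM in the ILK-K5 libraries.

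**Figure D4:**
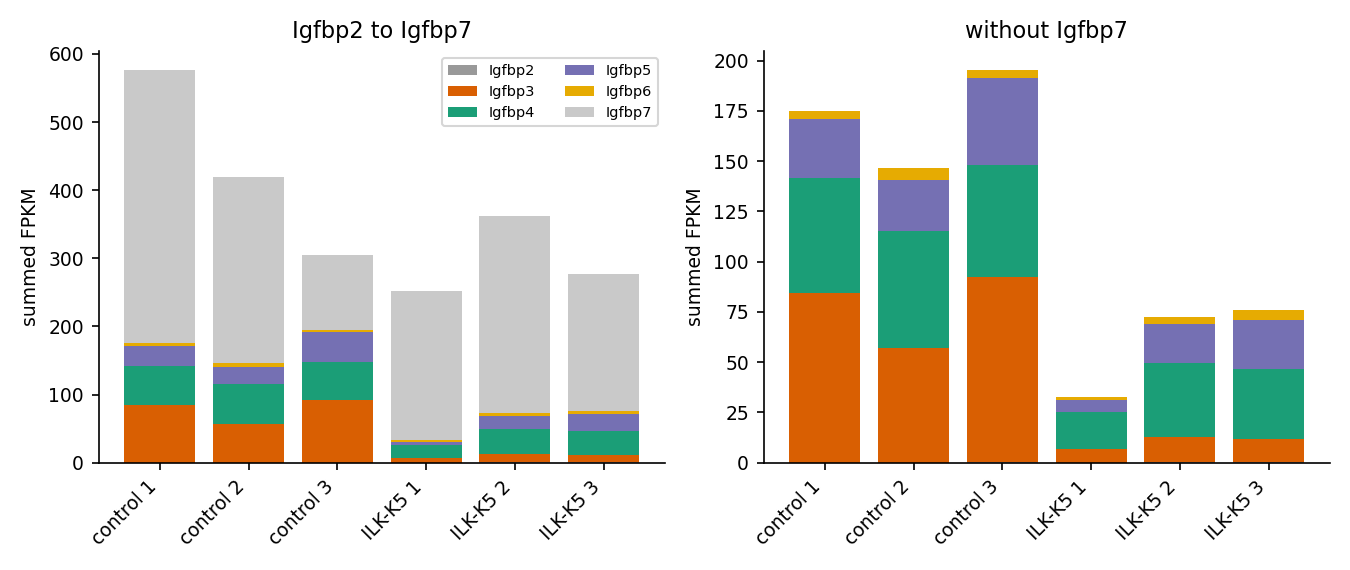
Summed FPKM of the Igfbp genes in each library as stacked bars that start at 0, split by gene. Igfbp7 makes up most of the sum in every library but control 3, where it is 35.9%, and the Igfbp3 segment is smaller in the 3 ILK-K5 libraries.

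A wider list of 62 genes around this axis was examined by role, from ligands and proteases to the intracellular arms. Of these, 52 were tested, 3 were called higher and 0 lower, beside 2.93% higher and 0.599% lower among all genes tested. Their median log2 fold change was 0.25, with 38 above and 14 below 0, beside 8265 above and 8103 below 0 among all genes tested. Pappa, a secreted protease that cuts Igfbp4 and Igfbp5 and so frees bound Igf, rose from 548, 508 and 313 normalised counts in the controls to 1693, 1514 and 1583 in the ILK-K5 libraries. Its means were 456 ± 125 and 1597 ± 90.3 (SD, n = 3 each; log2 fold change 1.84, SE 0.28, adjusted p = 0.00709). Inpp5d, a lipid phosphatase that acts against PI3K signals and is used mainly by blood cells, was counted at 5.79, 12.2 and 3.63 and at 161, 164 and 108 (4.26, SE 0.55, adjusted p = 0.00261), in the libraries in which macrophage markers were also higher, and their part in it was not tested. Ptpn1, a phosphatase of the insulin receptor, was counted at 162, 161 and 204 and at 520.3, 426 and 349.7 (1.28, SE 0.29, adjusted p = 0.0434), a call that was kept under 7 of 18 alternatives.

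**Figure D5:**
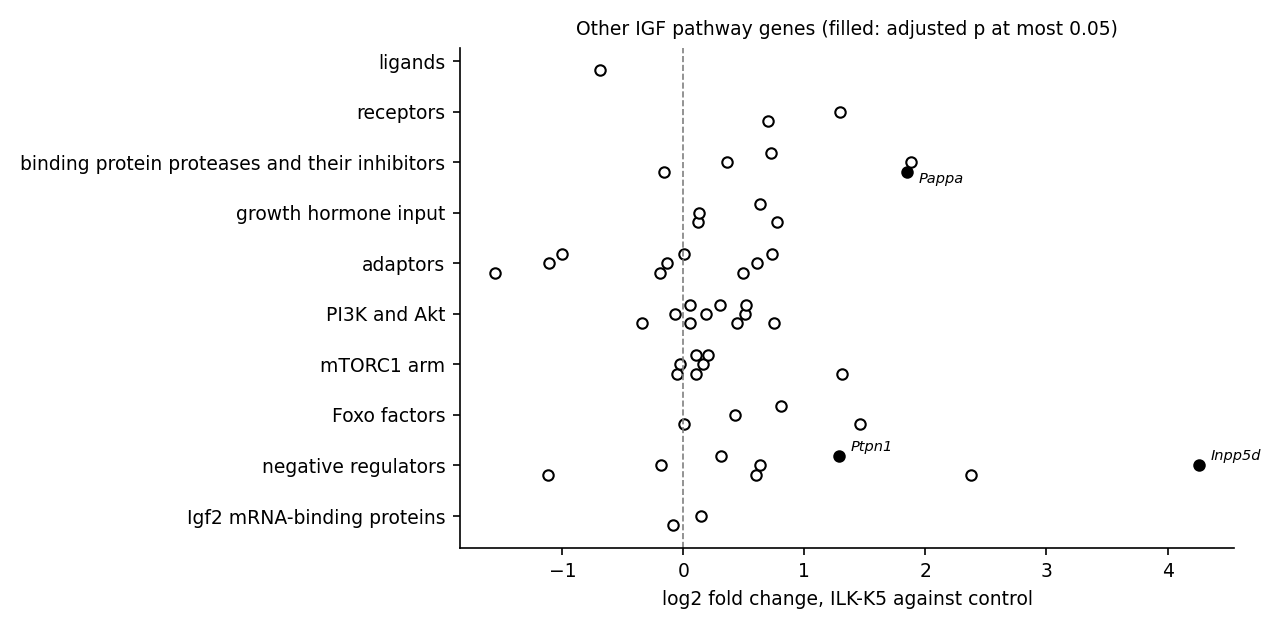
Log2 fold change, ILK-K5 minus control, of the 52 tested genes of the wider list by role, with called genes as filled points. Pappa at 1.84, Inpp5d at 4.26 and Ptpn1 at 1.28 are called, and the remaining 49 are not.

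Apart from the phosphatases Inpp5d and Ptpn1, the intracellular arms of the pathway were not called. Of 9 adaptors, 10 genes of PI3K and Akt, 7 of the mTORC1 arm and 4 Foxo factors, 0 were called, with median log2 fold changes of -0.14, 0.25, 0.11 and 0.61. The largest differences of the adaptors, the mTORC1 arm and the Foxo factors were -1.55 for the adaptor Grb14 (adjusted p = 0.274), 1.31 for the translation repressor Eif4ebp1 (0.610) and 1.46 for Foxo6 (0.646). Eif4ebp1 had 10, 13 and 67 reads in the controls and 18, 136 and 74 in the ILK-K5 libraries. Foxo6 had 11, 2 and 28 and 7, 67 and 44 reads, and for both genes the genotypes overlapped. Grb14 and Irs1, the latter chosen after its values were seen, were below the controls in every ILK-K5 library. Irs1, the docking protein of Igf1r and Insr, was at 294, 225 and 390.4 in the controls and at 94.5, 150.4 and 222 in the ILK-K5 libraries (-1.01, adjusted p = 0.289). Socs3, an inhibitor of cytokine receptors and Insr, was at 464, 66.9 and 160.4 and at 1770.3, 757 and 533, above the controls in every library but not called (2.38, SE 0.67, adjusted p = 0.112). Jak2, which carries the growth hormone signal, was higher in every ILK-K5 library without a call (0.77, adjusted p = 0.195), as was Lrp1, a receptor for Igfbp3 (1.29, adjusted p = 0.0969). The other tested ligand, Igf2, was at 12.5, 16.7 and 20.3 and at 7.97, 7.71 and 14.6 (-0.69, adjusted p = 0.805), the protease Adam12 differed by 1.88 (adjusted p = 0.519) and the RNA-binding protein Igf2bp2 by 0.14 (adjusted p = 0.959). Ins1, Ins2, Insrr, Igfbp1, Igfbpl1, Igfals, Pappa2, Stc2, Socs1 and Igf2bp1 stayed below the filter.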

How the data were processed

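PolyA RNA of sorted bulge SCs was measured in 3 control and 3 ILK-K5 libraries. Per the labels, RNA from TrizolLS was amplified with the Ovation system and made into Nextera XT libraries, and the submitters' processing notes name TopHat2 2.0.14, Bowtie2 2.2.4, DESeq2 1.6.3 and GRCm38. The program that counted reads and its strand setting are not given in the sources used here. The signal deposited by the authors is the normalised count, reads per gene divided by a DESeq2 size factor. All values (100%, tolerance 0.001) were whole multiples of what 1 read is worth, so reads were recovered. The FPKM values deposited by the authors equal the normalised counts times a constant per gene (34213 of 34213 genes, tolerance 1e-06). The deposited tables of the authors' own comparison, with fold changes and p-values at several limits, were not used.

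Of 43274 genes, 42107 (97.3%) had a symbol. Genotypes were compared with limma 3.58.1 in R 4.3.3 (lmFit, eBayes with trend, two-sided) on log2 of the normalised count plus 1, over 16368 genes with a mean of at least 10, with Benjamini-Hochberg adjustment over all of them and a threshold of 0.05. The fit was also run on simulated counts drawn independently for each gene, which do not model a change in cell composition. Their outcome is not reported here. Sums over the Igfbp genes were formed from FPKM and, as alternatives, from normalised counts, with TMM scaling, without Igfbp7 and without each library. The exact permutation test planned for them is not reported, since the members were chosen on this contrast. Positions came from GENCODE M21 and promoter windows of 250 bases before the start from RefSeq.

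Members, gene lists and tests were chosen with earlier results of these data known. The text names Ilk, the members, called genes of the wider list and the largest difference of each role that was not called, the 5 genes most like Igf1, Igfbp3 and Igfbp7, and the most abundant markers; any other name is marked where it occurs. Not every result this covers is reported here. Results were recomputed with 0.1 or 5 added before the log, without the filter, with a mean of at least 50, TMM scaling, quantile normalization, FPKM, edgeR 4.0.16 and DESeq2 1.42.0 on the recovered reads, leaving out each library, a replicate block, a term for the digits in the library names, and replicates 2 and 3 only.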

Additional observations from a re-analysis of the deposited data

How the results depend on the processing

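Of 161 values of the 9 tested members under the alternatives, 152 kept their direction and side of the threshold, 2 passed it newly and 7 changed sign. Igf1 was called higher and Igfbp3 lower under 18 of 18 alternatives, with adjusted p of at most 0.00266 and 0.00837. Leaving out a library gave 5.19 to 5.51 for Igf1, -3.18 to -2.72 for Igfbp3, -0.04 to 0.64 for Igf1r (-0.035 without control 2), -0.0077 to 0.93 for Igf2r, -0.074 to 0.30 for Insr, -0.50 to 0.44 for Igfbp7 and -0.094 to 0.79 for Ilk, all log2 fold changes. Igfbp7 was -0.14 with edgeR and -0.14 with DESeq2. The cause was not tested.

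Ilk changed sign in 1 alternative, without control 1. Replicate numbers were checked for pairing by the correlation of deviations from the genotype means, which was 0.529, 0.020 and 0.307 for numbers 1 to 3. Control 2 and control 3 correlated best with ILK-K5 libraries of another number (0.074 and 0.498). Control 1 correlated at -0.45 and -0.32 with ILK-K5 libraries 2 and 3, whose names end in other digits. Deviations from a genotype mean cancel out within that genotype, so a positive correlation with 1 library comes with a negative one elsewhere. These correlations are therefore not separate evidence on pairing. The sources used here do not say what the numbers or digits mark, so they were not taken as pairs. With the replicate block, 2 members were called lower, Igfbp4 (adjusted p = 0.0488) beside Igfbp3, and 5 genes of the wider list higher. The term for the digits in the names also gave 2 members lower (Igfbp4, adjusted p = 0.0427) and 5 genes of the wider list higher. DESeq2 gave 5 higher and 1 lower on the wider list. The 5 were Lrp1, Pappa, Inpp5d, Ptpn1 and Socs3 under each of these, and the lower gene was Grb14, which was also called without control 3 (0 to 1 lower when leaving out a library). Over all genes, 479 were called higher and 98 lower, against 848 and 269 with the replicate block, 846 and 286 with the digits term, 773 and 263 with DESeq2, and 222 to 559 and 32 to 98 without a library. The low counts of Igfbp2 limit what can be said of it at this depth.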

Other observations

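Igfl3, a gene of the separate IGF-like family, was looked at after its values were seen. It had 0 reads in every control and 45, 24 and 8 reads in ILK-K5 libraries 1 to 3, which are 51.2, 18.5 and 7.79 normalised counts. It was called higher (limma adjusted p = 0.0483) and was called under 8 of 17 alternatives, with adjusted p up to 0.253. Igflr1, named as a receptor of this family, was listed at 0 in every library.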
